A study of Ovis aries with 12 samples.

Results

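The comparison set 3 corpora lutea of pregnant ewes against 3 of non-pregnant ewes, all taken on day 14. They were 6 of the 12 arrays of a sheep series, chosen by the source label of each sample. The sample titles name another group than the source label for 9 of the 12 arrays, and the source label was followed. Fertile rams had served the pregnant ewes. The non-pregnant ewes were left unmated, and a vasectomized ram served to find their day of the cycle. The other 6 arrays, 3 of pregnant and 3 of non-pregnant ewes on day 12, entered the fit and served as a reference level. Breed and age of the ewes, and whether a conceptus was recovered, are not stated in the labels read here. Per the protocols, glands were snap frozen and 200 ng of total RNA was labelled for an Affymetrix bovine expression array. All levels are log2 values of single arrays, given for replicates 1, 2 and 3, with the pregnant ewes first where 3 values stand against 3 others. A difference is the pregnant minus the non-pregnant level from the fit, ± its standard error (n = 3 a group). An adjusted p comes from limma with Benjamini-Hochberg adjustment over all probe sets.

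The corpus luteum is the gland that forms from the ovulated follicle and secretes progesterone. In a ewe without a conceptus, prostaglandin F2 alpha from the uterus ends its life, a regression called luteolysis. In early pregnancy the trophoblast of the conceptus secretes interferon tau, which restrains the release of this prostaglandin and also induces interferon-stimulated genes in tissues of the mother. Steroidogenic luteal cells, a dense bed of capillaries, pericytes, fibroblasts and immune cells make up the gland. In whole tissue, fewer cells of a type and less RNA per cell cannot be told apart.

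The tissue label was checked against markers of luteal cells. STAR lay between 12.18 and 13.18 over all 12 arrays, OXT between 12.79 and 13.24 and CYP11A1 between 11.16 and 11.89, all in the top 1% of mean levels (percentiles 99.8, 99.9 and 99.1). Of 5 oocyte and follicle markers, FSHR lay between 2.50 and 2.93, which is dim. The other 4 were not dim, with GDF9 at 5.14 to 5.59, ZP3 at 4.47 to 5.15, AMH at 4.13 to 4.88 and CYP19A1 at 4.16 to 4.69. None of the 5 passed in limma or had groups without overlap on day 14. A probe set is called dim in a group whose mean lay in the lowest 33.3% of mean levels, under 4.15. The 3 day 14 non-pregnant arrays stood apart. On the first principal component, with 29.6% of the variance, they lay at 18.1, 33.7 and 40.4, against -13.0 to -7.0 for all others. They were also unlike each other, with 31.6 for replicate 2 and -24.5 for replicate 3 on the second component. The root mean square SD over probe sets was 0.256 in this group and 0.172 to 0.189 in the others, so a spread pooled over groups is small for it. The array description gave a pair of names, taken as batches. Batch A held 4 arrays, among them day 14 pregnant replicate 3 and day 14 non-pregnant replicates 2 and 3, and batch B held the other 8.

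**Figure D1:**
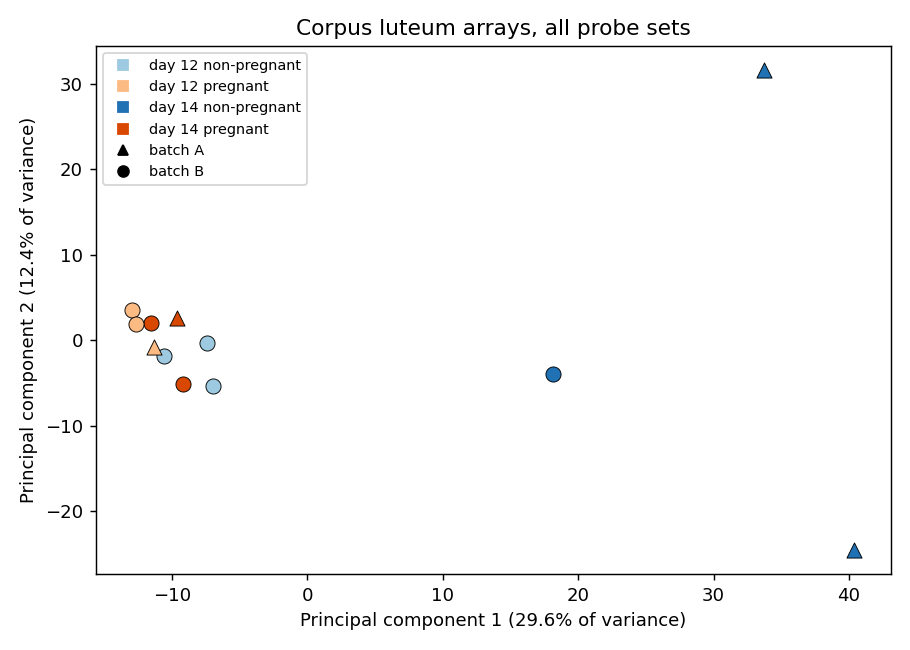
First against second principal component of the 12 arrays over all probe sets, with colour for the group and shape for the batch. The 3 day 14 non-pregnant arrays lie between 18.1 and 40.4 on the first component, and the day 14 pregnant arrays lie among those of day 12.

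On day 14, some genes of steroid synthesis (STAR, NR5A2), blood vessels (VEGFA, CD34) and the interferon response (DHX58, XAF1) were higher with pregnancy. Some genes of cell adhesion (CDH1, CDH2), the actin cytoskeleton (TPM4, VCL), lipid storage (PLIN2) and stress (CRYAB) were lower. SOAT1 and THBS1, of the same lists as STAR and VEGFA, were lower too. The median difference was -0.05 in the adhesion list, -0.05 in the actin list and 0.00 in the lipid list. It was -0.18 in the heat shock list, against 0.03 over all genes. Of 24016 probe sets, 348 passed the threshold of 0.05 in limma (1.45%), and 3706 had an unadjusted p under 0.05. Of the 348, 129 were higher (0.537%) and 219 lower (0.912%) in pregnant ewes. By the brightest probe set of each gene, 68 of 9155 named genes were higher (0.743%) and 110 lower (1.2%). The groups did not overlap in 345 of the 348. Over all probe sets the pregnant arrays all lay above the non-pregnant ones in 11.1% and below them in 7.15%. A fit of only the 6 arrays compared called 24 probe sets (0.0999%), all of them among the 348 and with equal sign. Without day 14 pregnant replicates 1, 2 and 3 the count was 177, 146 and 88, and without day 12 pregnant replicate 2 or day 12 non-pregnant replicate 3 it was 223 or 227. With a variance factor for each group, which allows the non-pregnant day 14 arrays their wider spread, 166 passed.

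**Figure D2:**
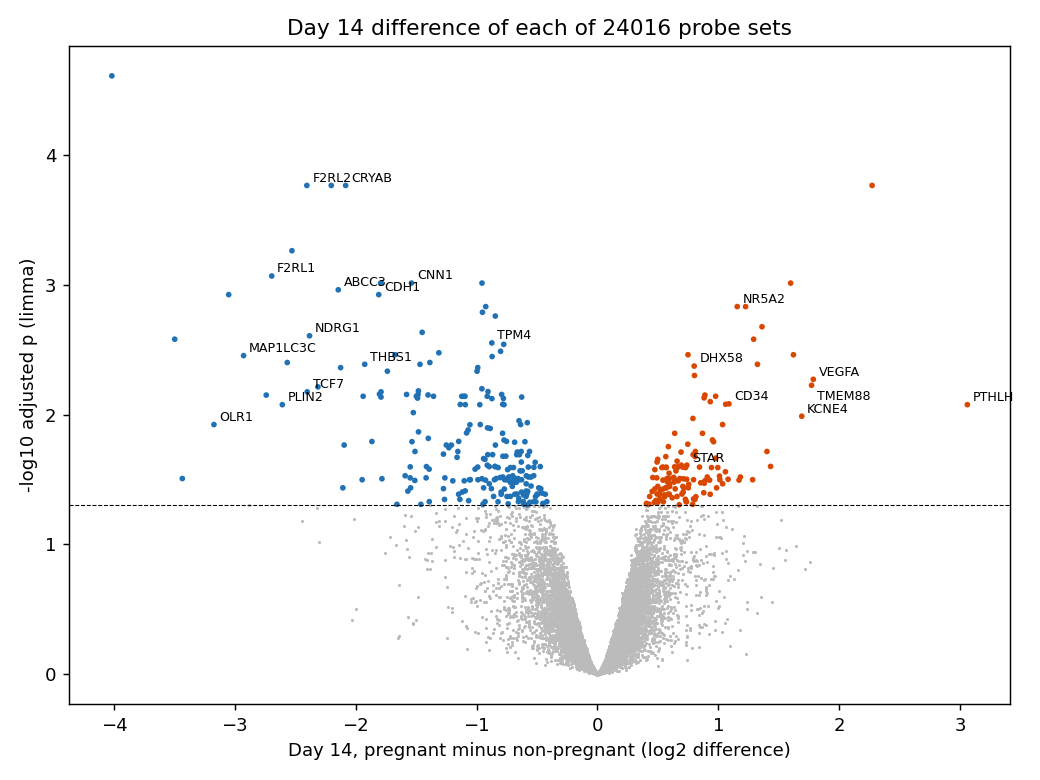
Log2 difference on day 14 (pregnant minus non-pregnant, x axis) against -log10 of the adjusted p from limma (y axis) for each of 24016 probe sets. Orange points are higher and blue points lower past the threshold of 0.05 (dashed line). There are 129 orange and 219 blue points, with PTHLH farthest to the right at 3.06.

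In most of the 348 the non-pregnant ewes lay away from the day 12 level and the pregnant ewes near it. Against the mean of both day 12 groups, 0 probe sets passed in pregnant ewes of day 14 (0%) and 855 had an unadjusted p under 0.05 in limma. In non-pregnant ewes of day 14, 359 passed (1.49%), 243 higher and 116 lower. Against the day 12 non-pregnant ewes alone 94 passed, and against both day 12 groups 1001 passed without the batch term and 1049 with batch as a random block. Leaving out day 12 pregnant replicate 3 brought this count to 118, leaving out day 12 non-pregnant replicate 2 brought it to 210, and leaving out day 14 non-pregnant replicate 2 brought it to 587. These contrasts share arrays with the day 14 comparison and with each other. Of the 348 probe sets, the pregnant mean was the nearer to the day 12 mean in 332 and the non-pregnant mean in 16. Which mean was nearer was not counted over all probe sets, so this split has no background to set it against. The pregnant mean lay within the range of the 6 day 12 arrays in 275 of the 348 and the non-pregnant mean in 13, against 20525 and 15933 of all 24016. On day 12 itself, 0 probe sets passed for pregnant against non-pregnant ewes (0%), with 1847 at an unadjusted p under 0.05 in limma.

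In progesterone synthesis, STAR and NR5A2 were higher. STAR is the protein that moves cholesterol into mitochondria. STAR lay at 13.12, 13.11 and 13.13 in the pregnant ewes and at 12.68, 12.18 and 12.21 in the non-pregnant ewes, with 12.91 to 13.18 on day 12. The pregnant ewes were alike to within hundredths and above every non-pregnant ewe. The difference was 0.74 ± 0.13, adjusted p = 0.0245, or 1.67-fold. It was 0.94 and 0.44 within batches A and B, and it missed the threshold once day 14 pregnant replicate 3 was left out (adjusted p = 0.146).

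NR5A2, a nuclear receptor that activates steroidogenic genes, was at 8.71, 8.71 and 8.50 in pregnant and 7.50, 7.46 and 7.33 in non-pregnant ewes. The groups were far apart for their spread, with 8.28 to 8.80 on day 12. The difference was 1.16 ± 0.12, adjusted p = 0.00148, and it passed in each of the 12 fits without 1 array. Its relative NR5A1, which has the same kind of role, was at 9.69, 9.61 and 9.60 against 9.47, 9.48 and 9.21 (0.22 ± 0.24, adjusted p = 0.72).

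HSD3B1, the enzyme that makes progesterone from pregnenolone, was at 12.24, 12.33 and 12.05 against 12.0, 11.19 and 11.18, without overlap, and did not pass (0.62 ± 0.14, adjusted p = 0.0556). CYP11A1, the side-chain cleavage enzyme, was at 11.81, 11.88 and 11.63 against 11.54, 11.16 and 11.16 (0.43 ± 0.11, adjusted p = 0.0769). In both genes the non-pregnant array of batch B lay closest to the pregnant level. SCARB1, the receptor that takes up cholesterol from HDL, had a difference of 0.45 ± 0.13 (adjusted p = 0.128).

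SOAT1, which stores cholesterol as esters, went the other way, at 6.44, 6.52 and 6.11 against 7.46, 7.11 and 6.78 (-0.95 ± 0.21, adjusted p = 0.049). Of the 22 measured genes of progesterone synthesis and cholesterol handling, 2 were higher and 1 lower past the threshold, and 15 lay above 0. The median difference was 0.20, against 0.03 over all 9155 genes, of which 55.6% lay above 0. The mean level of the list was 8.04, 8.08 and 8.09 in pregnant and 7.96, 7.80 and 7.84 in non-pregnant ewes.

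Cholesterol biosynthesis, which supplies the same pathway, gave no common picture across batches. In limma 0 of its 18 measured genes passed, 4 had an unadjusted p under 0.05 and 15 lay above 0, with a median of 0.15 in the fit, 0.59 within batch A and -0.20 within batch B. The mean level of the list was 8.87, 8.84 and 8.90 in pregnant and 8.97, 8.40 and 8.24 in non-pregnant ewes, so replicate 1 of the non-pregnant ewes lay above all pregnant ones and the other 2 below. The median ranged from 0.003 without day 14 pregnant replicate 3 to 0.47 without day 14 non-pregnant replicate 1. FDFT1, which makes squalene, had a difference of 0.91 ± 0.35 (adjusted p = 0.237).

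Among receptors and peptides that keep or end luteal function, PTHLH stood out. It encodes parathyroid hormone-related protein, a locally acting peptide. Its level was 11.33, 11.28 and 10.92 in pregnant and 7.27, 7.80 and 9.77 in non-pregnant ewes, with 10.90 to 11.38 on day 12. The non-pregnant ewes were all lower, and they spread widely. The difference was 3.06 ± 0.46, adjusted p = 0.0084, or 8.35-fold, with 2.14 and 4.03 within batches A and B.

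PTGFR, the receptor for prostaglandin F2 alpha, was at 11.81, 11.78 and 11.43 against 11.37, 10.33 and 10.69 (0.77 ± 0.22, adjusted p = 0.115). LHCGR, the receptor for luteinizing hormone, was at 8.38, 8.17 and 8.28 against 8.33, 7.35 and 7.72 and overlapped (0.37 ± 0.21, adjusted p = 0.446). PRLR, the prolactin receptor, was at 4.66, 4.78 and 4.78 against 4.29, 3.99 and 4.37 (0.52 ± 0.14, adjusted p = 0.0953). None of these 3 receptors passed. Of the 24 measured genes of this list 1 was higher and 0 lower past the threshold, with a median of 0.10.

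Oxytocin itself, which the ovine gland secretes, differed little. OXT was at 13.09, 13.14 and 12.91 in pregnant and 13.02, 13.03 and 12.79 in non-pregnant ewes (0.06 ± 0.11, adjusted p = 0.831). The oxytocin receptor OXTR was dim in both groups, at 3.46, 3.63 and 3.60 against 3.58, 3.64 and 3.89 (-0.14 ± 0.16, adjusted p = 0.738). EDN1, the vasoconstrictor endothelin-1, was at 7.68, 7.69 and 8.53 against 8.63, 8.33 and 8.05 (-0.24 ± 0.44, adjusted p = 0.847).

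In prostaglandin synthesis, transport and breakdown 0 of 11 genes passed in limma, and 4 had an unadjusted p under 0.05. PTGS2, the inducible cyclooxygenase, was at 4.53, 4.61 and 4.50 against 4.02, 4.24 and 5.75, so only replicate 3 of the non-pregnant ewes was high (0.01 ± 0.32, adjusted p = 0.992). PTGIS, the prostacyclin synthase, had a difference of -0.87 ± 0.21 (adjusted p = 0.0651). SLCO2A1, the prostaglandin transporter, had a difference of 0.73 ± 0.19 (adjusted p = 0.0893).

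Angiogenic factors moved in both directions. Of 27 measured angiogenic factors and receptors 3 were higher and 1 lower past the threshold, with a median of 0.05. VEGFA, the main growth factor of luteal capillaries, lay at 10.36, 10.45 and 10.66 in pregnant and 8.78, 8.21 and 9.23 in non-pregnant ewes, with 9.85 to 10.50 on day 12. Every pregnant ewe was far above every non-pregnant ewe. The difference was 1.79 ± 0.24, adjusted p = 0.00536, with 1.94 and 1.63 within batches A and B, and it missed the threshold once day 14 pregnant replicate 3 was left out (adjusted p = 0.0584). The second VEGFA probe set was at 0.99 (adjusted p = 0.0559).

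THBS1, thrombospondin-1, which restrains vessel growth, was at 10.35, 9.21 and 10.06 against 11.54, 11.97 and 12.18 (-1.92 ± 0.25, adjusted p = 0.00411). Its 6 probe sets disagreed, with 3 lower past the threshold and others near 0. FGFR2, a receptor for fibroblast growth factors, had a difference of 0.73 ± 0.13 (adjusted p = 0.0256) by 1 of 5 probe sets. The remaining 4 did not pass.

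Endothelial markers did not move as 1 block. CD34, a surface protein of endothelial cells and progenitors, was at 8.38, 8.42 and 8.22 against 7.66, 6.76 and 7.07 (1.09 ± 0.16, adjusted p = 0.00828). TIE1, an endothelial receptor kinase, was at 7.10, 7.02 and 7.15 against 6.54, 6.76 and 6.68 (0.48 ± 0.088, adjusted p = 0.0266). PECAM1, an adhesion protein of endothelial cells, had a difference of -0.40 ± 0.22 (adjusted p = 0.421), in the other direction. Of 18 measured endothelial markers 2 were higher and 0 lower past the threshold, with a median of 0.08, with 0.14 in batch A and -0.07 in batch B. The range of their mean level was 6.80 to 6.89 in pregnant and 6.53 to 6.92 in non-pregnant ewes. The part of endothelial cell number in the VEGFA and CD34 differences was not tested.

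Several of the largest rises were outside these lists. TMEM88, a membrane protein that binds a WNT pathway scaffold, was at 7.24, 7.48 and 7.46 in pregnant and 6.22, 4.90 and 5.45 in non-pregnant ewes (1.77 ± 0.24, adjusted p = 0.00596). KCNE4, a subunit that inhibits potassium channels, was at 8.85, 8.70 and 8.94 against 7.19, 7.65 and 6.55 (1.69 ± 0.26, adjusted p = 0.0103). Neither gene overlapped between the groups, as in 345 of the 348 called probe sets. The pregnant means of both genes lay near those of day 12.

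BTNL9, a butyrophilin-like surface protein, was at 5.46, 5.83 and 5.45 against 4.24, 4.53 and 3.81 (1.43 ± 0.26, adjusted p = 0.0251). HLF, a transcription factor of the PAR bZIP family, was at 6.78, 6.75 and 6.14 against 5.59, 5.07 and 5.40 (1.17 ± 0.23, adjusted p = 0.032). TM4SF18, a tetraspanin-like membrane protein, was at 11.09, 11.01 and 10.52 against 10.36, 9.33 and 9.01 (1.08 ± 0.21, adjusted p = 0.0315). In TM4SF18 the non-pregnant array of batch B was again the nearest to the pregnant ewes.

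Genes of amino acid breakdown were higher in 3 cases. PPM1K, the phosphatase that activates breakdown of branched-chain amino acids, was at 5.99, 5.66 and 6.11 against 4.56, 5.31 and 5.09 (1.06 ± 0.16, adjusted p = 0.00834), and 3 of its 4 probe sets passed. GCSH, a protein of the glycine cleavage system, had a difference of 0.79 ± 0.12 (adjusted p = 0.0107). AMT, another protein of that system, had a difference of 0.66 ± 0.14 (adjusted p = 0.0428). Of the 20 measured genes of the amino acid breakdown list, which does not hold PPM1K, GCSH and AMT were higher and 0 lower, with a median of -0.01.

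DNM1L, the GTPase of mitochondrial fission, was at 9.48, 8.75 and 9.21 against 8.47, 7.90 and 7.92 (1.01 ± 0.20, adjusted p = 0.0318). NEU1, a lysosomal sialidase, was at 7.73, 8.33 and 7.48 against 6.85, 6.69 and 7.04 (0.93 ± 0.18, adjusted p = 0.032). MTMR3, a phosphoinositide phosphatase, had a difference of 0.89 ± 0.13 (adjusted p = 0.00709), and ORC3, of the replication origin complex, one of 0.93 ± 0.14 (adjusted p = 0.00797). Both passed in all 12 fits without 1 array.

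KCNQ3, a potassium channel, had a difference of 0.89 ± 0.17 (adjusted p = 0.0324), and DNAJC27, a J domain protein, one of 0.88 ± 0.18 (adjusted p = 0.04). ECM1, an extracellular matrix protein, was at 6.76, 7.01 and 6.53 against 6.15, 5.72 and 5.54 (0.87 ± 0.14, adjusted p = 0.014). GBP1, a guanylate-binding protein that interferons induce, had a difference of 0.81 ± 0.14 (adjusted p = 0.0211) from a dim level in non-pregnant ewes.

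In the BCL2 family, 2 genes were higher. BCL2A1, an inhibitor of apoptosis, was at 7.17, 7.29 and 7.75 against 6.85, 6.39 and 6.52 (0.80 ± 0.17, adjusted p = 0.0446). BCL2L2, another inhibitor, was at 8.86, 8.58 and 8.71 against 8.33, 8.09 and 8.06 (0.52 ± 0.11, adjusted p = 0.0411). Each passed in few of the 12 fits without 1 array, 3 for BCL2A1 and 2 for BCL2L2. Of the 23 measured BCL2 family members and caspases the other 21 did not pass, and the median was 0.00.

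**Figure D3:**
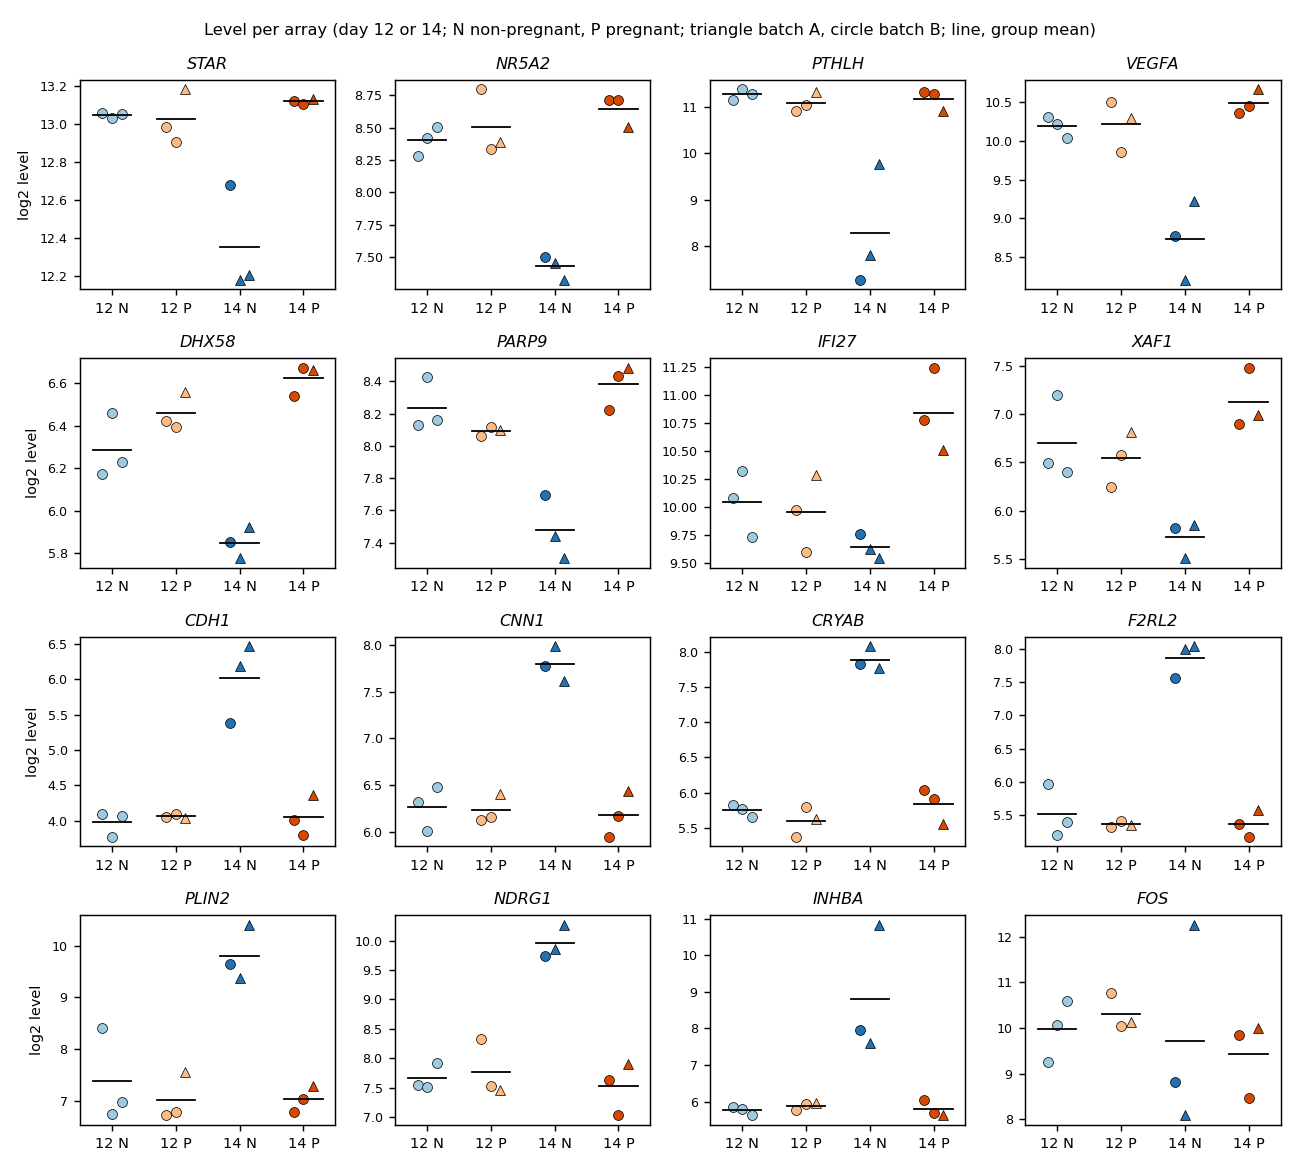
Log2 level of 16 genes in each of the 12 arrays, by day (12 or 14) and pregnancy (N non-pregnant, P pregnant), with lines at group means, triangles for batch A and circles for batch B. In every gene but FOS the day 14 non-pregnant arrays all lie to 1 side of the day 14 pregnant arrays, and in FOS a single non-pregnant array at 12.26 lies above the rest.

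Interferon-stimulated genes gave more calls than any other of the 45 lists, all of them higher in pregnant ewes. Of 41 measured genes 13 were higher and 0 lower past the threshold, against the 0.743% and 1.2% of all genes, and 37 lay above 0. The median was 0.57 in the fit, 0.48 within batch A and 0.49 within batch B. In 27 of the 41 every pregnant ewe lay above every non-pregnant ewe, against 1081 of all 9155 genes. In 0 of the 41 every pregnant ewe lay below, against 794 of all genes. The mean level of the list was 6.71, 7.01 and 6.78 in pregnant and 6.33, 6.17 and 6.22 in non-pregnant ewes, with 6.37 to 6.73 on day 12.

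Sensors and signalling proteins of the antiviral response were among them. DHX58, the RNA sensor also called LGP2, was at 6.54, 6.67 and 6.67 in pregnant and 5.85, 5.78 and 5.92 in non-pregnant ewes. Its groups were tight and separate (0.80 ± 0.10, adjusted p = 0.00424), and it passed in each fit without 1 array. IFI35, an interferon-induced protein, was at 8.37, 8.56 and 8.61 against 8.0, 7.65 and 7.48 (0.75 ± 0.12, adjusted p = 0.0169). IRF9, the DNA-binding part of the interferon-activated complex, had a difference of 0.58 ± 0.13 (adjusted p = 0.0607).

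PARP9 and DTX3L form a complex that adds ADP-ribose and ubiquitin. PARP9 was at 8.22, 8.44 and 8.48 against 7.69, 7.45 and 7.30 (0.88 ± 0.13, adjusted p = 0.00744), and DTX3L at 7.94, 7.97 and 7.79 against 7.45, 7.18 and 7.14 (0.57 ± 0.10, adjusted p = 0.0256). PARP14, a relative of PARP9, had a difference of 0.54 ± 0.11 (adjusted p = 0.032). These genes moved by less than 1 log2 unit.

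Enzymes that attach ISG15, a ubiquitin-like protein, were higher while ISG15 itself did not pass. UBA7, the activating enzyme, was at 6.96, 7.41 and 7.10 against 6.58, 6.04 and 6.25 (0.82 ± 0.17, adjusted p = 0.043). UBE2L6, the conjugating enzyme, was at 7.07, 7.38 and 7.57 against 6.83, 6.49 and 6.30 (0.81 ± 0.17, adjusted p = 0.045). ISG15 was at 8.99, 10.20 and 8.75 against 8.15, 7.23 and 7.68, higher in every pregnant ewe, most of all in replicate 2, with a wide spread (1.46 ± 0.46, adjusted p = 0.152) and 7.60 to 9.62 on day 12.

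The largest differences among the 13 were those of XAF1, IFI27 and RTP4. XAF1, a protein that promotes apoptosis, was at 6.90, 7.48 and 6.99 against 5.82, 5.51 and 5.85 (1.40 ± 0.24, adjusted p = 0.0193). IFI27, a mitochondrial protein, was at 10.78, 11.25 and 10.51 against 9.76, 9.62 and 9.54 (1.18 ± 0.23, adjusted p = 0.0303). RTP4 was at 6.93, 6.90 and 6.69 against 6.06, 5.19 and 5.87 (1.06 ± 0.20, adjusted p = 0.0276). In IFI27 the pregnant ewes lay above all 6 arrays of day 12, whose range was 9.60 to 10.32.

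MX1, an antiviral GTPase, was at 6.51, 7.08 and 5.86 against 5.41, 5.23 and 5.42 and missed the threshold (1.04 ± 0.24, adjusted p = 0.065). MX2, its relative, had a difference of 0.73 ± 0.19 (adjusted p = 0.0911), and IFITM1, which blocks viral entry, one of 0.88 ± 0.23 (adjusted p = 0.0852). IFIT5, ZNFX1 and TRIM21, which act on viral RNA or on antibody-bound virus, had differences of 0.57 ± 0.099 (adjusted p = 0.0211), 0.70 ± 0.15 (adjusted p = 0.0409) and 0.48 ± 0.10 (adjusted p = 0.0459).

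By the median over members, the day 12 level of this list lay between both day 14 groups. That median was 0.29 above the day 12 mean in pregnant ewes and -0.21 in non-pregnant ewes, against 0.00 and -0.03 over all genes. In pregnant ewes of day 14, 0 probe sets passed against day 12 in limma, as above. In the mean level of the list, day 12 non-pregnant replicate 2 (6.733) lay above day 14 pregnant replicate 1 (6.715). The differences from day 12 were 0.50 and -0.91 for XAF1, 0.24 and -0.56 for DHX58, 0.85 and -0.33 for IFI27 and 0.22 and -0.66 for PARP9, pregnant first. On day 12 the pregnant minus non-pregnant difference was -0.16 for XAF1, 0.15 for DHX58 and -0.07 for IFI27. The interaction of day and pregnancy did not pass for these genes.

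Genes of class I presentation, whose products display peptides to killer T cells and which interferons induce, had 0 of 15 genes past the threshold in limma, with 6 at an unadjusted p under 0.05 and 13 above 0. The median was 0.27, with 0.41 in batch A, 0.09 in batch B and 0.12 without day 14 pregnant replicate 3. TAP2, of the peptide transporter, had a difference of 0.42 ± 0.10 (adjusted p = 0.0726), TAP1 one of 0.32 ± 0.095 (adjusted p = 0.128) and PSMB9, an immunoproteasome subunit, one of 0.54 ± 0.14 (adjusted p = 0.0832). IFI30, a thiol reductase that prepares antigens for class II presentation, was lower, at 7.44, 7.99 and 7.98 against 8.80, 9.96 and 9.47 (-1.51 ± 0.26, adjusted p = 0.0193). It was the 1 lower gene of 12 measured for class II presentation, with 0 higher and a median of 0.07.

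Immune cell markers did not pass. The count was 0 of 21 for T and NK cells, 0 of 14 for macrophages, 0 of 11 for neutrophils and eosinophils and 0 of 6 for B and plasma cells in limma. An unadjusted p under 0.05 was found for 2, 5, 0 and 1 of them. The medians were 0.15, 0.03, -0.04 and 0.08. Of the 21 T and NK markers 18 lay above 0. The member with the smallest p, CTLA4, went the other way, with a difference of -1.09 (adjusted p = 0.0835). The mean macrophage marker level was 6.31, 6.69 and 6.85 in pregnant and 6.17, 6.94 and 7.15 in non-pregnant ewes, so the non-pregnant ewes were both the lowest and the highest. VSIG4, a complement receptor of macrophages and the member with the smallest p, had a difference of 0.74 (adjusted p = 0.0649), higher within both batches (0.56 and 1.0). In the other direction, CD68, a macrophage lysosomal protein, had a difference of -0.63 ± 0.26 (adjusted p = 0.271) and CD14 one of -0.44 ± 0.19 (adjusted p = 0.308). The part of immune cells in the interferon and IFI30 differences was not tested.

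Cell division genes lay above 0 in all 36 measured cases, with 0 past the threshold in limma and 16 at an unadjusted p under 0.05. The median was 0.36, with 0.55 in batch A, 0.19 in batch B and 0.14 without day 14 pregnant replicate 3. MCM3, of the replicative helicase, was at 6.87, 6.56 and 6.75 against 6.25, 6.22 and 6.11 (0.49 ± 0.11, adjusted p = 0.0613). TPX2, a spindle factor, was at 6.86, 6.45 and 6.89 against 6.03, 6.0 and 5.91 (0.74 ± 0.18, adjusted p = 0.0792), and AURKB, a mitotic kinase, had a difference of 0.47 ± 0.12 (adjusted p = 0.0845). The mean level of the list was 5.64, 5.50 and 5.78 in pregnant and 5.35, 5.21 and 5.17 in non-pregnant ewes, without overlap, and 5.54 to 6.16 on day 12.

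**Figure D4:**
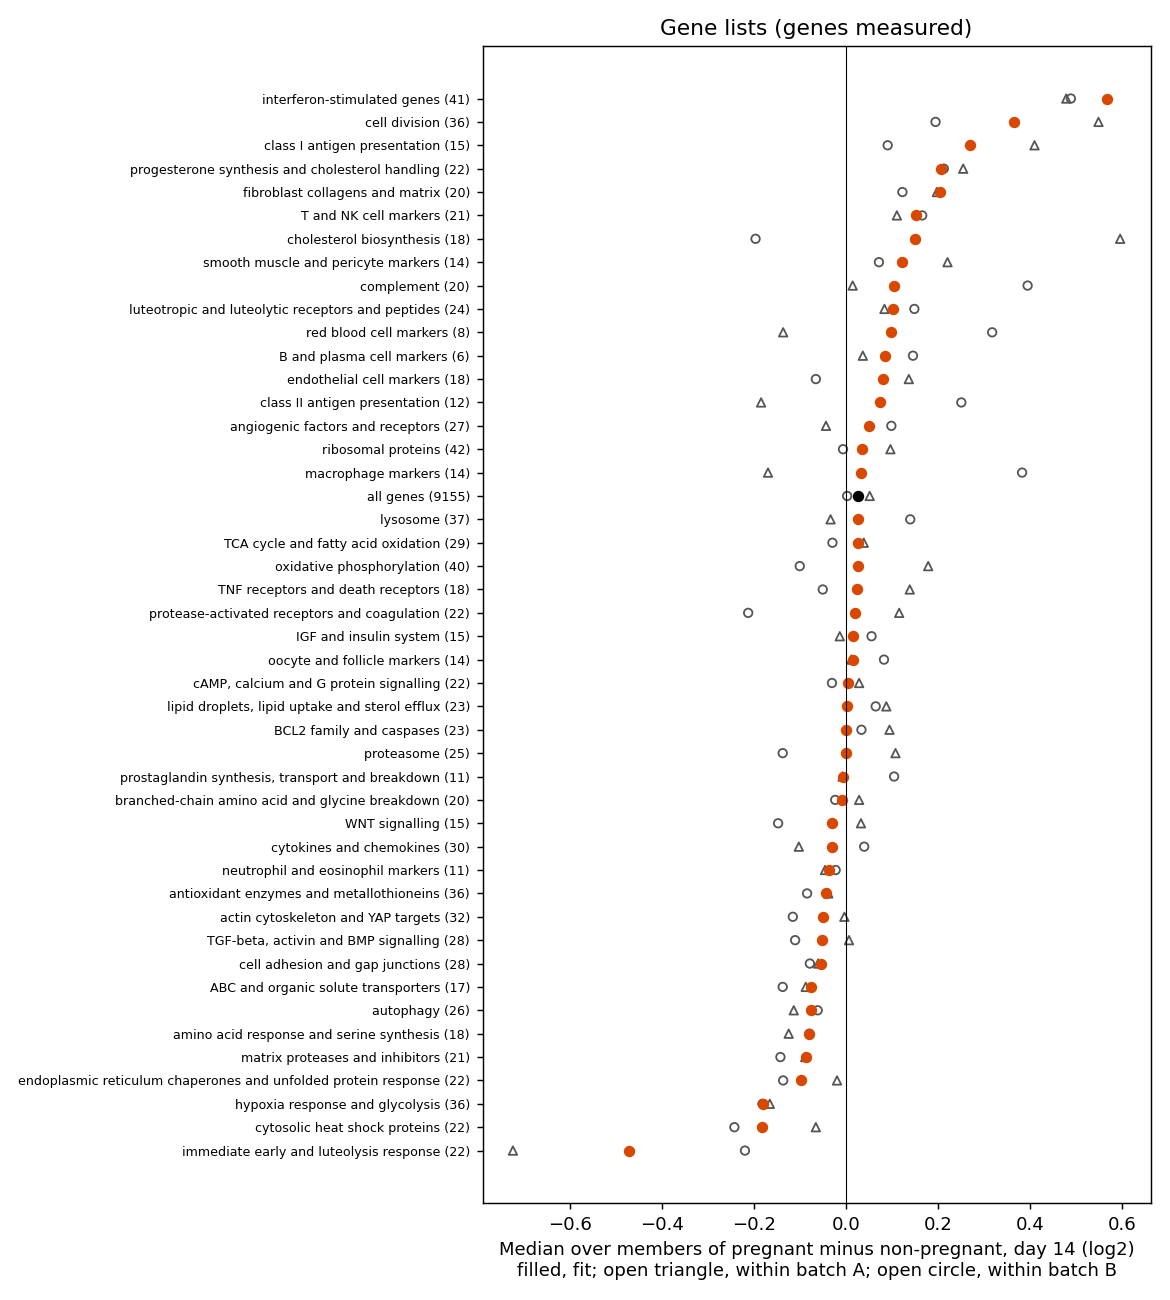
Median over the measured members (number in brackets) of the day 14 difference, pregnant minus non-pregnant in log2, for 45 gene lists and for all genes, from the fit (filled) and within batches A (open triangle) and B (open circle). Interferon-stimulated genes have the highest median at 0.57 and the immediate early list the lowest at -0.47, while cholesterol biosynthesis and macrophage markers lie on opposite sides of 0 in the batches.

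Genes lower in pregnant ewes included adhesion proteins. CDH1, E-cadherin, which joins epithelial cells, was at 4.01, 3.79 and 4.36 in pregnant and 5.39, 6.19 and 6.47 in non-pregnant ewes, with 3.77 to 4.10 on day 12. It was dim in every group but the non-pregnant ewes of day 14, so the difference of -1.81 ± 0.18 rests on a dim level (adjusted p = 0.0012). CDH2, N-cadherin, the cadherin of luteal and granulosa cells, was at 6.95, 7.0 and 7.14 against 8.22, 9.07 and 8.67 (-1.49 ± 0.22, adjusted p = 0.00747).

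CD44, a receptor for hyaluronan, was at 6.0, 6.65 and 6.34 against 7.34, 8.34 and 7.62 (-1.42 ± 0.27, adjusted p = 0.0307). CGN, cingulin of tight junctions, which is in none of the lists, was at 5.48, 6.40 and 6.22 against 7.42, 8.57 and 7.13 (-1.57 ± 0.32, adjusted p = 0.0389). CGN passed in only 3 of the 12 fits without 1 array. ITGAV and ITGA5, integrin subunits, had differences of -1.0 ± 0.23 (adjusted p = 0.0626) and -0.96 ± 0.24 (adjusted p = 0.0781). Of 28 measured genes of adhesion and gap junctions CDH1, CDH2 and CD44 were lower and 0 higher past the threshold, with a median of -0.05.

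Some actin-binding proteins were lower too. CNN1, calponin, which binds actin in smooth muscle, was at 5.94, 6.16 and 6.43 against 7.78, 7.98 and 7.61 (-1.54 ± 0.15, adjusted p = 0.000974), or 2.9-fold higher without pregnancy. TPM4, a tropomyosin, was at 11.53, 11.59 and 11.64 against 12.42, 12.49 and 12.50 (-0.87 ± 0.10, adjusted p = 0.00281). VCL, vinculin of focal adhesions, was at 10.12, 10.05 and 9.95 against 10.98, 10.62 and 10.75 (-0.79 ± 0.11, adjusted p = 0.00701), and PDLIM1, a linker of actin fibres, had a difference of -0.59 ± 0.11 (adjusted p = 0.0296).

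CNN1 was the 1 smooth muscle marker past the threshold. MYH11, the smooth muscle myosin, had a difference of 0.72 ± 0.19 (adjusted p = 0.0962), in the other direction. Of 14 measured smooth muscle and pericyte markers 0 were higher and 1 lower, and their mean level was 7.80 to 8.19 in pregnant and 7.94 to 8.12 in non-pregnant ewes. Of the 32 genes of the actin cytoskeleton and YAP targets TPM4, VCL and PDLIM1 were lower and 0 higher, with a median of -0.05.

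Protease-activated receptors, which proteases such as thrombin or trypsin cleave, were lower in 2 cases. Of 22 measured genes of these receptors and of coagulation 2 were lower and 0 higher past the threshold, with 12 above 0 and a median of 0.02. F2RL2 was at 5.37, 5.18 and 5.58 in pregnant and 7.56, 8.0 and 8.04 in non-pregnant ewes (-2.40 ± 0.18, adjusted p = 0.000172), or 5.29-fold higher without pregnancy. F2RL1 was at 3.61, 3.86 and 4.0 against 6.11, 6.95 and 6.68 (-2.69 ± 0.25, adjusted p = 0.000859), from a dim level in the pregnant ewes. Both stayed past the threshold with only the 6 arrays compared (adjusted p = 0.00154 and 0.0038). PLAT and PLAUR, of the plasminogen system, had differences of -0.84 ± 0.19 (adjusted p = 0.0533) and -1.31 ± 0.31 (adjusted p = 0.0664). F13A1, a subunit of the factor that cross-links fibrin, had one of 0.69 (adjusted p = 0.105).

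Matrix turnover gave 2 lower genes of 21 (9.52%, against 1.2% of all genes) and no higher one. Of the 21, 8 lay above 0, with a median of -0.09. TIMP3, an inhibitor of metalloproteinases, was at 8.71, 8.64 and 8.46 against 9.57, 10.57 and 9.96 (-1.40 ± 0.23, adjusted p = 0.0153). The collagenase MMP1 was dim in both groups (-0.75 ± 0.15, adjusted p = 0.0318). Collagens and other fibroblast genes had 0 of 20 past the threshold in limma and 6 at an unadjusted p under 0.05, with a median of 0.20, which was 0.09 without day 14 non-pregnant replicate 2.

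Lipid storage differed through a few genes. PLIN2, the coat protein of lipid droplets, was at 6.80, 7.03 and 7.29 against 9.64, 9.38 and 10.40, or 6.09-fold higher without pregnancy (-2.61 ± 0.39, adjusted p = 0.0084). OLR1, a receptor for oxidized LDL, was at 5.18, 5.50 and 3.94 against 6.88, 8.61 and 8.57 (-3.17 ± 0.50, adjusted p = 0.012), with -4.65 and -1.53 within batches A and B. FABP5, a fatty acid carrier, had a difference of -1.02 ± 0.25 (adjusted p = 0.0793). The other 21 of 23 measured genes of lipid droplets, uptake and efflux did not pass, and the median was 0.00.

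Of 17 measured ABC and solute transporters 3 were lower and 0 higher past the threshold, with 8 above 0 and a median of -0.08. ABCC3, an efflux pump for organic anions, was at 7.79, 7.82 and 7.56 against 9.49, 10.36 and 9.86 (-2.14 ± 0.21, adjusted p = 0.0011). SLC16A1, a carrier of lactate and pyruvate, was at 5.87, 6.04 and 6.12 against 6.96, 7.19 and 6.59 (-0.94 ± 0.17, adjusted p = 0.0218). SLC2A1, the glucose transporter GLUT1, was at 8.15, 8.41 and 8.10 against 9.11, 8.73 and 9.27 (-0.85 ± 0.15, adjusted p = 0.0251). Members that did not pass lay on both sides, with SLCO2A1 at a difference of 0.73, as above, and SLC39A14, a zinc carrier, at 0.52 (adjusted p = 0.202). ABCG8, part of a sterol export pump that is in none of the lists, had a difference of -0.95 ± 0.092 (adjusted p = 0.000974) and was chosen for mention after its values were seen.

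Among stress genes, chaperones were lower in pregnant ewes in 3 cases. CRYAB, a small chaperone, was at 6.03, 5.91 and 5.56 against 7.82, 8.08 and 7.77, with 5.37 to 5.83 on day 12 (-2.08 ± 0.15, adjusted p = 0.000172). The non-pregnant ewes were close to each other and far above the rest. HSP90AA1, the inducible HSP90, had a difference of -0.72 ± 0.15 (adjusted p = 0.0427). HSPB8 and HSPH1, both chaperones, had differences of -0.56 ± 0.12 (adjusted p = 0.0502) and -0.95 ± 0.21 (adjusted p = 0.0502), just short of the threshold.

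Of 22 measured cytosolic heat shock genes 2 were lower and 0 higher, with 18 below 0 and a median of -0.18, -0.07 within batch A and -0.24 within batch B. Without day 14 non-pregnant replicate 1 the median was -0.09. The mean level of the list was 8.54, 8.54 and 8.61 in pregnant and 8.96, 8.75 and 8.88 in non-pregnant ewes. In the endoplasmic reticulum, HSPA5, the main chaperone, had a difference of -0.59 ± 0.12 (adjusted p = 0.0389). It was the 1 gene of 22 past the threshold there, with 7 above 0 and a median of -0.10.

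Hypoxia and glycolysis genes lay below 0 in 28 of 36 cases, with a median of -0.18, which was -0.11 without day 14 non-pregnant replicate 2. NDRG1, a gene that hypoxia and stress induce, was at 7.63, 7.03 and 7.91 against 9.73, 9.86 and 10.27 (-2.38 ± 0.27, adjusted p = 0.00248). SLC2A1 was lower too, as above, and VEGFA, which hypoxia also induces, was the 1 higher gene of the list. The batches alone gave medians of -0.17 (A) and -0.18 (B).

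Antioxidant genes included 3 lower of 36 (8.33%, against 1.2% of all genes) and no higher one. Of the 36, 16 lay above 0, with a median of -0.04. PRDX6, a peroxiredoxin, was at 10.07, 9.53 and 9.96 against 10.91, 11.20 and 11.05 (-1.12 ± 0.16, adjusted p = 0.00724), by 2 of 4 probe sets. HMOX2, a heme oxygenase, was at 5.87, 6.05 and 5.79 against 6.85, 7.40 and 6.74 (-1.15 ± 0.19, adjusted p = 0.0161). MT2A, a metal-binding protein, was at 11.30, 11.18 and 11.72 against 12.80, 12.36 and 12.71 (-1.26 ± 0.27, adjusted p = 0.045). In the list of amino acid response, 2 of 18 were lower and 0 higher, with 6 above 0 and a median of -0.08. These were NUPR1, a stress regulator (-0.60 ± 0.099, adjusted p = 0.0162), and PSPH, an enzyme of serine synthesis (-0.75 ± 0.16, adjusted p = 0.0428).

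Autophagy and vesicle genes were lower in single cases. MAP1LC3C, of the LC3 family that marks autophagosomes, was at 7.33, 6.44 and 7.38 against 9.90, 10.57 and 9.61 (-2.93 ± 0.36, adjusted p = 0.00352). VMP1, a membrane protein needed to form autophagosomes, was at 8.07, 8.17 and 8.46 against 9.16, 9.22 and 9.44 (-1.0 ± 0.13, adjusted p = 0.00464). ATP6V1E1, a subunit of the proton pump that acidifies lysosomes, was at 8.47, 8.62 and 8.58 against 9.24, 9.50 and 9.37 (-0.80 ± 0.097, adjusted p = 0.00326). GAA, a lysosomal glucosidase, had a difference of 0.73 ± 0.16 (adjusted p = 0.0561), in the other direction. Of 26 measured autophagy genes 2 were lower (7.69%) and 0 higher past the threshold, with 10 above 0 and a median of -0.08. Of 37 lysosomal genes 1 was lower (2.70%) and 0 higher, with 23 above 0 and a median of 0.03. Over all genes 1.2% were lower.

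Growth factor systems differed member by member. Of 15 measured IGF and insulin genes 0 were higher and 1 lower past the threshold, with a median of 0.015. Of 28 genes of TGF-beta, activin and BMP signalling 1 was higher and 2 lower, with a median of -0.05. IGFBP3, which binds insulin-like growth factors, was at 7.84, 8.06 and 7.60 against 9.49, 8.88 and 9.31 (-1.50 ± 0.22, adjusted p = 0.00724), and IGFBP5 had a difference of -0.80 ± 0.19 (adjusted p = 0.0696). TGFB1 was lower, at 5.01, 5.21 and 5.13 against 5.89, 6.14 and 5.58 (-0.76 ± 0.13, adjusted p = 0.0209), while its relative TGFB2 was at 7.34, 7.12 and 7.99 against 6.25, 7.21 and 6.58, overlapping but higher in the fit (0.98 ± 0.17, adjusted p = 0.0217).

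BMPR1B, a receptor for bone morphogenetic proteins, was at 5.16, 5.0 and 4.39 against 5.92, 5.59 and 5.86 (-1.09 ± 0.16, adjusted p = 0.00724). INHBA, the activin subunit, was at 6.03, 5.69 and 5.64 against 7.96, 7.59 and 10.84. It had a large difference and a wide spread, and it lay on the threshold itself without passing (-2.88 ± 0.63, adjusted p = 0.05001). Replicate 3 of the non-pregnant ewes was far above the other 2.

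Signalling genes included small GTPases of the RAD and GEM family. RRAD was at 6.69, 6.40 and 6.30 against 8.27, 7.95 and 8.61 (-1.80 ± 0.25, adjusted p = 0.00697), and GEM at 9.08, 7.86 and 8.64 against 10.46, 11.11 and 10.48 (-2.12 ± 0.28, adjusted p = 0.00436). PDE8A, a phosphodiesterase that breaks down cAMP, was at 6.02, 6.02 and 6.04 against 6.94, 6.44 and 6.77 (-0.77 ± 0.13, adjusted p = 0.0157). PRKCD, a protein kinase C, had a difference of -0.99 ± 0.22 (adjusted p = 0.0522). PDE8A was the 1 lower gene of 22 measured for cAMP, calcium and G protein signalling, with 0 higher and a median of 0.00.

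Of 18 measured genes of the list of TNF receptors and their targets 2 were lower and 0 higher past the threshold, the receptor TNFRSF12A and the secreted protein TNFAIP6. TNFRSF12A, the receptor for TWEAK, was at 8.08, 8.03 and 7.56 against 9.26, 8.33 and 9.40 (-1.25 ± 0.21, adjusted p = 0.0172). TNFRSF6B, a soluble decoy receptor that is in none of the lists, was at 6.42, 6.40 and 6.88 against 8.89, 8.41 and 7.75 (-1.94 ± 0.28, adjusted p = 0.00724). TNFAIP6, which binds hyaluronan, was at 5.80, 5.62 and 6.44 against 8.63, 6.85 and 8.36 (-2.11 ± 0.43, adjusted p = 0.0367). CXCL8, a neutrophil chemokine, was dim in both groups (-0.59 ± 0.12, adjusted p = 0.0428). In the list of cytokines and chemokines, 1 of 30 measured genes was lower and 0 higher, with 12 above 0 and a median of -0.03. Members that did not pass lay on both sides, with IL6 at 1.76 (adjusted p = 0.138) and CCL2 at -1.09 (adjusted p = 0.129).

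Other large falls were those of TCF7, ELL2 and CRABP2. TCF7, a transcription factor of the WNT pathway, was at 4.26, 5.15 and 5.67 against 7.22, 8.14 and 7.29 (-2.40 ± 0.33, adjusted p = 0.00669). ELL2, an elongation factor, was at 6.59, 6.49 and 6.23 against 7.91, 7.86 and 9.31 (-1.87 ± 0.31, adjusted p = 0.0161). CRABP2, which binds retinoic acid, was at 4.89, 4.19 and 4.51 against 5.85, 6.37 and 6.26 (-1.52 ± 0.23, adjusted p = 0.00967). Each lay without overlap between the groups, as did 345 of the 348 called probe sets.

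STAMBP, a deubiquitinase, had a difference of -1.58 ± 0.22 (adjusted p = 0.00701), and UPP1, uridine phosphorylase, one of -1.66 ± 0.36 (adjusted p = 0.0491). NAAA, an acid amidase of lysosomes, had a difference of -1.55 ± 0.30 (adjusted p = 0.0307). SH3BGR had a difference of -1.55 ± 0.28 (adjusted p = 0.0253). TG, annotated as thyroglobulin, had a difference of -1.51 ± 0.30 (adjusted p = 0.0322) from a dim level in pregnant ewes. TG passed in 5 of the 12 fits without 1 array.

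The largest fall and the second largest rise had no gene name in the annotation, and were chosen for mention after their values were seen. The fall was from a probe set at 5.97, 6.12 and 6.68 in pregnant and 10.10, 10.53 and 10.36 in non-pregnant ewes (-4.02 ± 0.22, adjusted p = 2.47e-05). The rise was from one at 6.78, 6.28 and 6.13 against 4.18, 3.73 and 4.24 (2.27 ± 0.17, adjusted p = 0.000172). In both, the pregnant ewes lay in or near the day 12 range, which was 5.76 to 6.65 and 5.92 to 6.34.

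Immediate early genes, which respond fast to signals such as luteolytic prostaglandin, gave no call. In limma 0 of 22 passed and 5 had an unadjusted p under 0.05, with 17 below 0 and a median of -0.47. The mean level of the list was 8.51, 8.25 and 8.35 in pregnant and 8.50, 8.04 and 10.23 in non-pregnant ewes, so replicate 3 alone was high. Without it the median was -0.08.

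FOS, ATF3 and NR4A1, transcription factors of this response, were named after their values were seen. FOS was at 9.85, 8.46 and 9.99 in pregnant and 8.82, 8.08 and 12.26 in non-pregnant ewes (-0.07 ± 0.87, adjusted p = 0.982). ATF3 was at 4.88, 4.75 and 5.76 against 7.11, 4.88 and 9.63 (-2.0 ± 0.90, adjusted p = 0.315), and NR4A1 at 6.26, 5.89 and 5.93 against 6.24, 4.94 and 9.03 (-0.65 ± 0.78, adjusted p = 0.746). The same array was the highest of its group in all 3 genes, and it was also the high one for PTGS2 and INHBA.

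By the smallest p, JUN, a partner of FOS, had a difference of -0.68 ± 0.16 (adjusted p = 0.0658) and ATF4, a stress-induced factor, one of -0.51 ± 0.16 (adjusted p = 0.142). MAFF and FOSB had differences of -0.98 ± 0.40 (adjusted p = 0.266) and -1.24 ± 0.54 (adjusted p = 0.301). None passed.

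**Figure D5:**
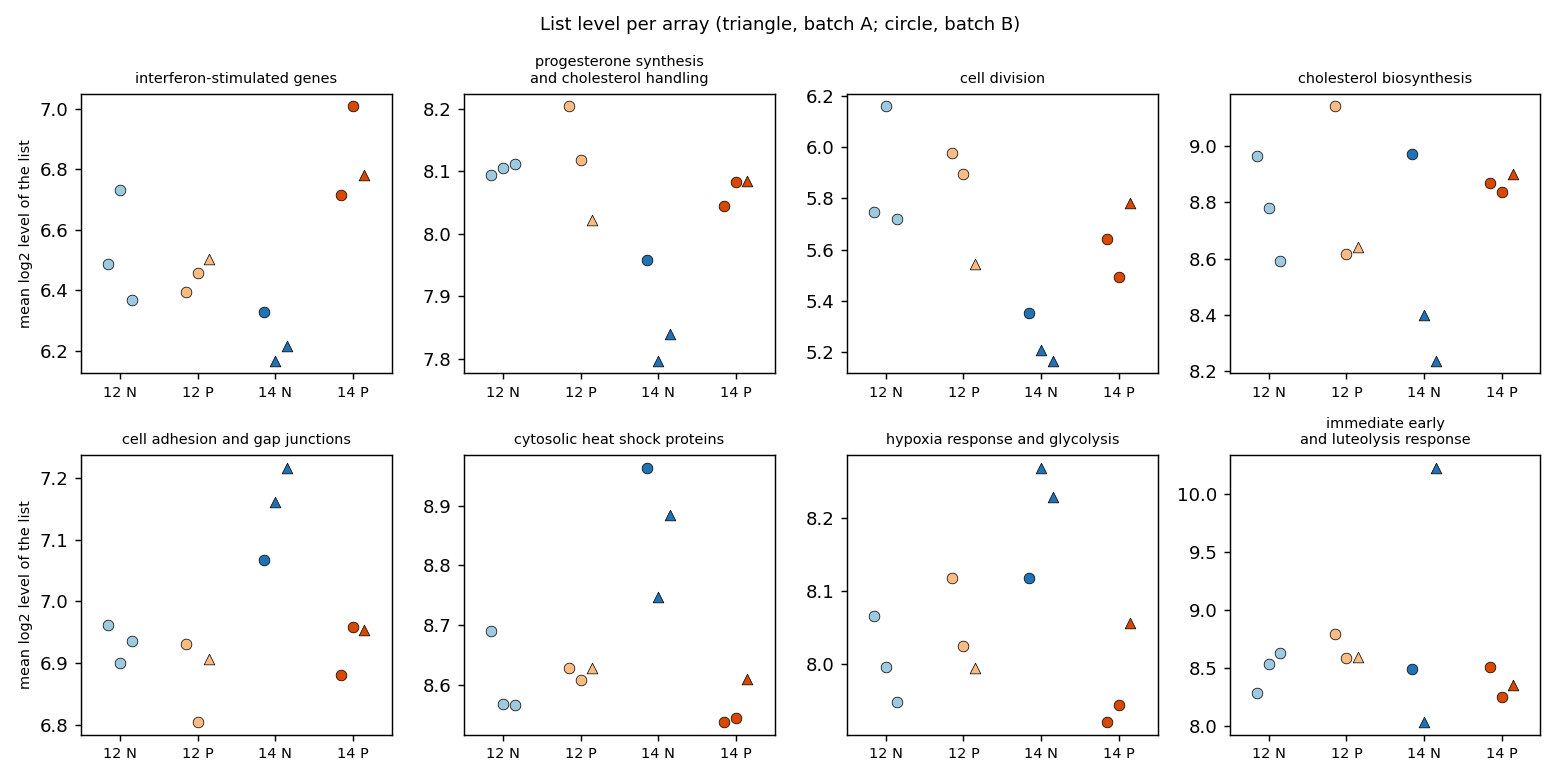
Mean log2 level of 8 gene lists in each of the 12 arrays, by day (12 or 14) and pregnancy (N non-pregnant, P pregnant), with triangles for batch A and circles for batch B. The interferon list lies at 6.72 to 7.01 in the day 14 pregnant arrays and at 6.17 to 6.33 in the non-pregnant ones, and in the immediate early list a single non-pregnant array lies at 10.23.

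General cell machinery did not pass. The count was 0 of 42 ribosomal proteins, 0 of 40 genes of oxidative phosphorylation, 0 of 29 of the TCA cycle and fatty acid oxidation and 0 of 25 proteasome genes in limma, with 1 gene of each list at an unadjusted p under 0.05. Their medians lay between 0.00 and 0.03, beside 0.03 over all genes. WNT signalling had 0 of 15 and complement 0 of 20 past the threshold in limma, with 4 and 6 at an unadjusted p under 0.05 and medians of -0.03 and 0.10.

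The difference with pregnancy on day 14 was set against that on day 12 in an interaction term. It passed for 21 probe sets (0.0874%), with 2262 at an unadjusted p under 0.05 in limma. That count was 1 without day 12 pregnant replicate 2 or day 12 non-pregnant replicate 3, 56 and 76 without day 14 non-pregnant replicates 1 and 2, and 2 to 10 without 6 of the others. Among the named genes these were CRYAB (-1.96 ± 0.22, adjusted p = 0.013), F2RL2 (-2.16 ± 0.26, adjusted p = 0.0132), F2RL1 (-2.57 ± 0.37, adjusted p = 0.0394), ABCC3 (-2.19 ± 0.31, adjusted p = 0.0394), CDH1 (-1.74 ± 0.27, adjusted p = 0.0481), CNN1 (-1.43 ± 0.22, adjusted p = 0.0456), ATP6V1E1 (-0.93 ± 0.14, adjusted p = 0.0456), ABCG8 (-0.98 ± 0.14, adjusted p = 0.0328) and TGFB2 (1.64 ± 0.25, adjusted p = 0.0456). On day 12 their differences were -0.12 for CRYAB, -0.24 for F2RL2, 0.05 for ABCC3, -0.11 for CNN1 and -0.66 for TGFB2, so only TGFB2 among these 5 had a difference of over 0.5 there. STAR, VEGFA, NR5A2 and PTHLH did not pass (0.74 ± 0.20, adjusted p = 0.272; 1.79 ± 0.35, adjusted p = 0.132; 1.0 ± 0.18, adjusted p = 0.0928; 3.41 ± 0.67, adjusted p = 0.132).

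A measure of RNA quality lay narrowly apart between the groups, and only as an average. The excess of 3′ over 5′ signal in control probe sets, averaged over actin and GAPDH, ran from 1.44 to 1.60 with pregnancy and from 1.29 to 1.43 without it on day 14. On day 12 it ran from 1.42 to 1.60. Each control alone overlapped between the day 14 groups. Actin was at 2.84, 2.81 and 2.70 against 2.45, 2.77 and 2.82, and GAPDH at 0.04, 0.39 and 0.31 against 0.13, -0.01 and 0.05. The part of RNA quality in the differences was not tested. Within each batch 1 array of 1 day 14 group stood against 2 of the other, so the within-batch values have no replicate check.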

How the data were processed

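The deposited log2 values, for 24128 probe sets on 12 arrays of 12 ewes, came from RMA, run in the Expression Console of Affymetrix according to the submitters' processing notes. How many arrays there are limits the precision. The 112 control probe sets were left out. Groups came from the source label, since 9 of the 12 titles name another group. Sheep RNA was hybridised to bovine probes, so differences were taken only within a probe set. The titles name a different ewe for each array, so replicates are separate animals. Replicates were numbered in accession order.

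Levels were fitted with limma 3.58.1 in R 4.3.3 on all 12 arrays (group plus batch, empirical Bayes, Benjamini-Hochberg over 24016 probe sets, threshold 0.05), with 7 residual and 4.39 prior degrees of freedom. The method was tested on simulated data. In that simulation all groups had the same spread within a probe set, unlike the arrays here. A gene was read from its brightest probe set, by the mean of the 12 arrays, among the 13292 probe sets with 1 gene symbol. In the annotation 86 probe sets had several symbols and 10638 had none. Symbols are those of the platform annotation and can be old.

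Genes were named by rule: 16 reference genes, the 25 largest differences past the threshold in each direction, every list member past it and up to 4 further members of a list by the smallest p. FOS, ATF3, NR4A1, ABCG8 and both unnamed probe sets were chosen after their values were seen. The comparison, the 45 lists and the tests were chosen with earlier results of these data known. The dim limit, the lowest 33.3% of mean levels, was also chosen after the data were seen, to equal that of earlier processing, and enters no test. Of the 348 called probe sets it marks 23 in both groups, 17 in pregnant and 10 in non-pregnant ewes only. With a lower limit of 3.59, these are 9, 18 and 4. Alternatives were the batch term, a random batch block, fewer arrays, group variances, a variance trend, a level filter, centring, and leaving out each array.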

Additional observations from a re-analysis of the deposited data

Results flagged for a closer look

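For 9 of the genes described the interaction term passed in limma (day 14 difference minus day 12 difference, log2, adjusted over all probe sets). It was -1.96 ± 0.22, adjusted p = 0.013 for CRYAB and -2.16 ± 0.26, adjusted p = 0.0132 for F2RL2. It was -2.57 ± 0.37, adjusted p = 0.0394 for F2RL1, -2.19 ± 0.31, adjusted p = 0.0394 for ABCC3, -1.74 ± 0.27, adjusted p = 0.0481 for CDH1, -1.43 ± 0.22, adjusted p = 0.0456 for CNN1, -0.93 ± 0.14, adjusted p = 0.0456 for ATP6V1E1 and -0.98 ± 0.14, adjusted p = 0.0328 for ABCG8. Only TGFB2 had a positive value, at 1.64 ± 0.25, adjusted p = 0.0456. Of the 9, F2RL1 and CDH1 rest on dim levels in 3 of the 4 groups. The calls of this term over all probe sets fell from 21 to 1 without day 12 pregnant replicate 2 or day 12 non-pregnant replicate 3. At most 1 of the 9 genes can have passed in those fits.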

How the results depend on the processing

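Of the 90 called genes named, 1 of which (ABCG8) was chosen after its values were seen, all kept their sign in every alternative that fitted them. These genes were picked as called in the same arrays, so kept signs are no independent check. They still passed in 13 cases with only the 6 arrays compared and the batch term, in 35 without that term, in 56 with a variance factor per group and in 27 without day 14 pregnant replicate 3. The 348 calls (129 higher, 219 lower) became 531 (213 higher) without the batch term and 521 (210 higher) with batch as a random block. They became 24 (6 higher, 18 lower) with only the 6 arrays compared, 94 (32 higher, 62 lower) with these and no batch term, and 166 (41 higher, 125 lower) with a variance factor per group. Without the 2 non-pregnant day 14 arrays of batch A they became 174 (27 higher). With only batch B arrays on day 14, an alternative chosen after seeing the data, they became 163 (27 higher, 136 lower). Both fits hold 1 non-pregnant array of day 14, which is assumed to vary like the other groups. Leaving out each array gave 88 to 510 calls, 27 to 175 higher and 61 to 388 lower. Non-pregnant ewes against day 12 gave 359 calls, then 1001 without the batch term, 1049 with the random block, 212 with group variances, 221 with only batch B on day 14 and 94 against day 12 non-pregnant ewes alone. Leaving out each array gave 118 to 587. Pregnant ewes against day 12 gave 0 in every alternative in limma. The interaction gave 21 calls, then 50 without the batch term, 50 with the random block, 11 without the dimmer probe sets, 59 without both batch A arrays, 59 with only batch B on day 14 and 1 to 76 with each array left out. The causes were not tested, though fewer arrays also mean fewer degrees of freedom.

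Among single genes, signs changed only in some that did not pass. The median changed sign in at least 1 alternative for 24 of the 45 lists, among them the endothelial (3 of 25 alternatives), angiogenic (2), BCL2 family (5), lysosome (6), macrophage (6) and cholesterol biosynthesis (3) lists. It kept its sign for 21, of which 18 moved by over 1.5 times without 1 array. Without both non-pregnant day 14 arrays of batch A, LHCGR was -0.0251, OXTR 0.0131, CD68 0.0128 and FOS 0.5203. With only batch B on day 14, LHCGR was -0.0534 and FOS 0.3374. FOS was 0.0794 with only the 6 arrays compared. PTGS2 was -0.124 without the batch term, on 12 or on 6 arrays, -0.1341 with the random block, -0.0171 with group variances and -0.0179 on centred arrays. Leaving out each array gave -0.3663 to 0.4391 for PTGS2, -0.5457 to 0.308 for EDN1, -0.9139 to 0.9865 for FOS and -1.4917 to 0.3637 for NR4A1. No paired analysis was possible because the replicate numbers are accession order and pair no ewes.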
